A study of Homo sapiens with 6 samples.

Results

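The genes described here are 45 genes of DNA replication and S phase, chosen by symbol, among 58884 gene rows measured by RNA sequencing in an esophageal squamous cell carcinoma (ESCC) cell line. KYSE450 is a human ESCC line with wild-type NRF2. KEAP1null-KYSE450 is a monoclonal derivative of it in which both copies of KEAP1 were disrupted by CRISPR-Cas9 editing. Each line was represented by 3 libraries of untreated cells grown in RPMI1640 medium with fetal bovine serum, and nothing in the labels says that the libraries of a line came from separate cultures, so the p-values measure the spread between these libraries, which may be technical. Since KEAP1null-KYSE450 is 1 clone, loss of KEAP1 and any other difference between this clone and the parental culture cannot be told apart.

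DNA replication starts when the origin recognition complex, CDC6 and CDT1 load the MCM2-7 helicase onto origins in G1 phase. CDC45 and the GINS complex then turn it into an active helicase, primase and DNA polymerase alpha lay down primers, and polymerases delta and epsilon extend them with the sliding clamp PCNA, which the RFC complex loads. Most of these genes are transcribed at the passage from G1 to S phase under E2F transcription factors, and their mRNA is therefore much used as a readout of cycling cells. KEAP1 is the adaptor that marks the transcription factor NRF2 for degradation, so that cells without it accumulate NRF2.

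All 45 genes passed the filter on low values (a mean of at least 10 normalized counts), and the lowest value of any of them in any library was 391 normalized counts. A normalized count is the number of reads of a gene divided by 1 size factor per library, and differences are given as log2 fold changes of the normalized count plus 1, KEAP1null-KYSE450 against KYSE450, tested with limma. Total normalized counts lay between 54829300 and 57380200 per library, and the 4 libraries whose reads were taken as recovered held 53027359 to 61543442 reads. The coefficient of variation between the libraries of a line had a median over the 45 genes of 9.73% in KYSE450 and 9.33% in KEAP1null-KYSE450. KEAP1 mRNA stood at 5760, 5226 and 5146 normalized counts in KYSE450 and at 5737, 4906 and 5317 in KEAP1null-KYSE450 (log2 fold change -0.02, limma adjusted p = 0.90). A count over a whole gene does not check an edit within it. NFE2L2, which encodes NRF2, was lower by 0.47 on the log2 scale (limma adjusted p = 6.3e-04). The squamous markers KRT5, TP63, DSG3, PERP and SFN were at 6666 normalized counts or more in every library, whereas KRT6A went from at least 64933 to at most 3028, and of these 6 markers 2 were higher and 4 lower in KEAP1null-KYSE450. Of 6 markers of leukocytes, endothelium, fibroblasts and hepatocytes, PTPRC, PECAM1, CD3E and ALB were at 0 to 8.09 normalized counts in every library. The other 2, COL1A1 and CDH5, were lower in KEAP1null-KYSE450, and the 6 together summed to 639 to 851 normalized counts in KYSE450 and 337 to 434 in KEAP1null-KYSE450.

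Promoter sequences of 5 of the genes are shown because they carry the range of responses described below. CLSPN, RRM1 and E2F2 had the largest declines, MCM6 has the most E2F words, and PCNA was not called. Each is the stretch of 250 bases just before the transcription start in RefSeq (GRCh38.p14), written 5′ to 3′ on the gene's strand, with capitals at versions of the sequence that E2F factors bind. The words searched, on both strands, were the form TTCCCGC, the variant written TTCGCGC, the variant written TTGCCGC and the variant written TTGGCGC. The windows are chr1:35769979-35770228 (minus strand) for CLSPN, chr11:4094435-4094684 (plus strand) for RRM1, chr1:23531234-23531483 (minus strand) for E2F2, chr2:135876444-135876693 (minus strand) for MCM6 and chr20:5126623-5126872 (minus strand) for PCNA.
CLSPN: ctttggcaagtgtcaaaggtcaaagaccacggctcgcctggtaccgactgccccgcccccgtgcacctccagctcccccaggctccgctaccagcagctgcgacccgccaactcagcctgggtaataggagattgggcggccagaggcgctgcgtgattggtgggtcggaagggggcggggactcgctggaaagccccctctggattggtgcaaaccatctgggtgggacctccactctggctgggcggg
RRM1: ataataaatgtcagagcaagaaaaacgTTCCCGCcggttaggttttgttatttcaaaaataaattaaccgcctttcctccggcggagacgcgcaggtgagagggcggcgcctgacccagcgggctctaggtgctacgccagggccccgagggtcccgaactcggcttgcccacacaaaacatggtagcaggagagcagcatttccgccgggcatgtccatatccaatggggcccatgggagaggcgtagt
E2F2: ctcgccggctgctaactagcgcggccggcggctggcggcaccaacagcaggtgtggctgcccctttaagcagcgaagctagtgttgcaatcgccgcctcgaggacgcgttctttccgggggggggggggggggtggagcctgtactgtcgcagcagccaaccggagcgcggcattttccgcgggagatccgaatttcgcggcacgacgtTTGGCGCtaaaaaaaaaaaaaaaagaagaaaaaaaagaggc
MCM6: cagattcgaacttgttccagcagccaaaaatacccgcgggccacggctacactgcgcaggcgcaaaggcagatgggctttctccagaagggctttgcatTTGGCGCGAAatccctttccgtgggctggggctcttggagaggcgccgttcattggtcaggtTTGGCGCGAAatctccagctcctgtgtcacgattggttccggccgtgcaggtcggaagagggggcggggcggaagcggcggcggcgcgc
PCNA: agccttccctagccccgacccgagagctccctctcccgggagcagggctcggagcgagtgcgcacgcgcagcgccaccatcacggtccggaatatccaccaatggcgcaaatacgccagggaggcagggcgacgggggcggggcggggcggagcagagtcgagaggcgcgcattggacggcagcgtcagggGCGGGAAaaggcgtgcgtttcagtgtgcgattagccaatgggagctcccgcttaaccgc
MCM6 holds 4 words as a pair of overlapping matches on opposite strands at each of 2 places, which begin 151 and 89 bases before the start. RRM1, E2F2 and PCNA hold 1 word each, 223, 41 and 59 bases before the start, and CLSPN holds 0.

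DNA replication genes were lower in KEAP1null-KYSE450 than in KYSE450 cells. Of the 45 genes, 30 were lower at an adjusted p under 0.05, where 25.5% of the 16701 genes tested were, and 0 were higher, where 24.3% of all genes were. At an unadjusted p under 0.05 by limma, 35 were lower and 0 higher. The count over all genes was not made at this threshold, so the 35 and the 0 cannot be set against a background. On the 4 libraries with recovered reads, edgeR and DESeq2 also called 0 of the 45 higher. Of all 16701 genes, they called 2914 and 2617 higher. The median log2 fold change was -0.39, against 0.004 over all genes tested. Well expressed genes were lower more often, at 35.0% of the 9488 genes with means in the range of these 45 (median -0.13). That background is therefore the closer one, and 1741 of its genes were higher. In 32 of the 45 genes every KEAP1null-KYSE450 library lay below every KYSE450 library, where this held for 29.3% of all genes. It held for 3765 of the 9488 genes in the range of means. In bulk RNA, fewer cells in S phase and less of these mRNAs per cell cannot be told apart.

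Most of the declines were moderate. CLSPN, RRM1 and E2F2, 3 of the 45, were also lower by at least 1 on the log2 scale, where 5.98% of all genes were. By limma, edgeR or DESeq2, 0 were higher by as much, where 12.2% of all genes were by limma. Of the 9488 genes in the replication genes' range of means, 428 were lower by as much and 351 higher by limma. The 45 genes together took 0.640%, 0.625% and 0.644% of the total normalized counts in KYSE450, and 0.476%, 0.433% and 0.458% of it in KEAP1null-KYSE450. The share was thus lower in every KEAP1null-KYSE450 library than in any KYSE450 library. The genes that were not called were ORC6, GINS1, GINS2, GINS3, PCNA, RFC3, RFC4, POLA2, POLE, POLE2, PRIM1, RPA2, FEN1, CCNE2 and SLBP.

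**Figure D1:**
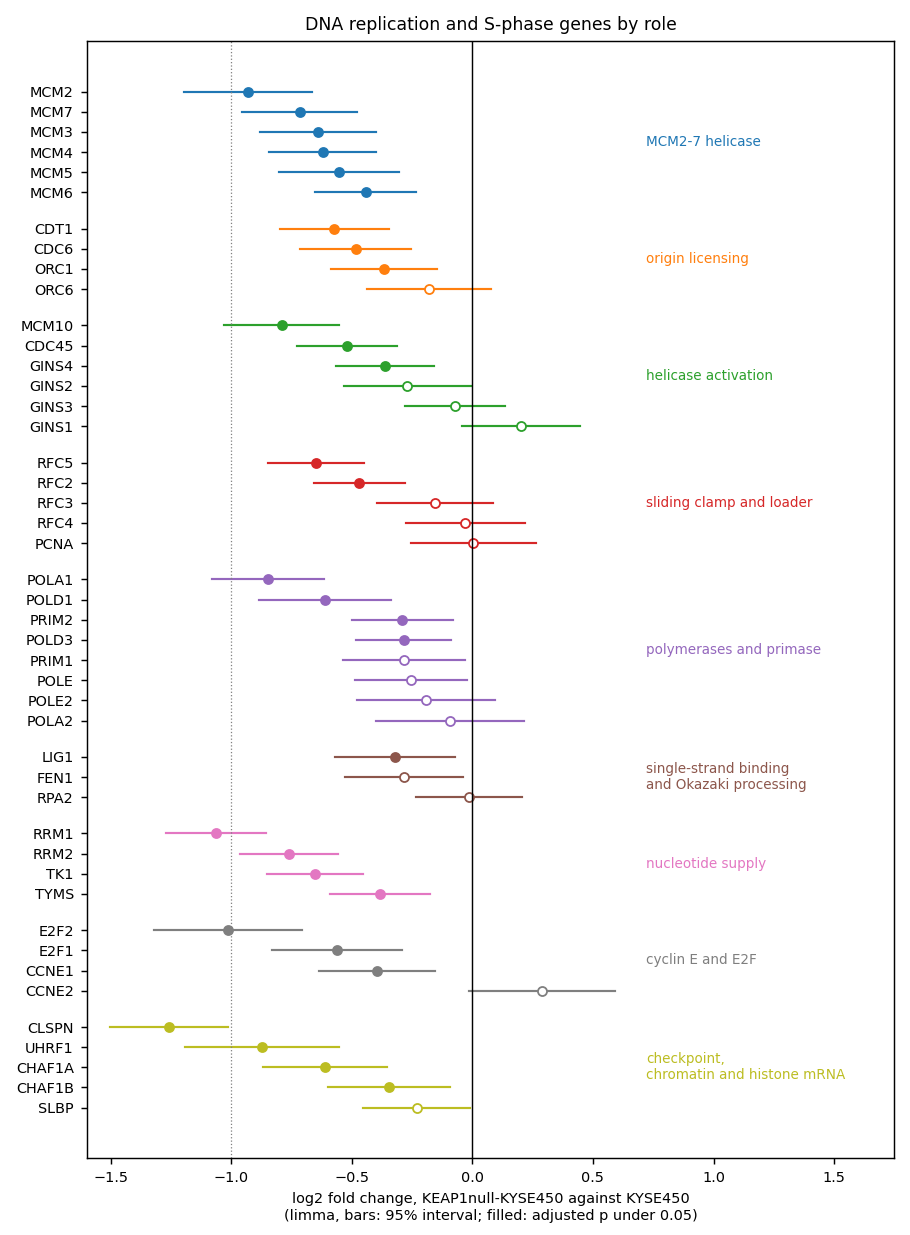
Log2 fold change of each of the 45 genes, KEAP1null-KYSE450 against KYSE450 (x axis), with 95% intervals from limma as bars and genes grouped by role. Filled points passed an adjusted p under 0.05 (30 genes, all to the left of 0) and the dotted line marks -1, which CLSPN, RRM1 and E2F2 passed.

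The 6 subunits of the MCM2-7 ring, the helicase core that unwinds DNA at the fork, all fell, with a median of -0.63. MCM2 stood at 25336, 21005 and 21446 normalized counts in KYSE450 and at 13964, 10239 and 11561 in KEAP1null-KYSE450. It had the largest decline of the ring (log2 fold change -0.93 ± 0.12 SE, limma adjusted p = 5.6e-05). MCM7 went from 36222, 32794 and 33203 to 23725, 18418 and 20344 (-0.72, limma adjusted p = 1.8e-04). MCM3 went from 23378, 20487 and 21236 to 15960, 12303 and 13680 (-0.64, limma adjusted p = 4.3e-04). In each of these subunits the highest KEAP1null-KYSE450 library lay well below the lowest KYSE450 library. MCM4 went from 21473, 20362 and 20666 to 15477, 12551 and 12784 (-0.62, limma adjusted p = 3.1e-04). MCM5 went from 12387, 10193 and 11255 to 8920, 6887 and 7334 (-0.55, limma adjusted p = 0.0016). MCM6 went from 12920, 13497 and 13974 to 10944, 9078 and 9771 (-0.44, limma adjusted p = 0.0023). MCM5 and MCM6 had the smallest declines of the ring, still with no overlap between the lines. With edgeR on the 4 libraries with recovered reads, MCM6 lost its call (-0.39, adjusted p = 0.098) and the other subunits did not.

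The subunits of the ring act as 1 complex, but their mRNA levels differed severalfold. Per kilobase of the canonical transcript, mean levels in KYSE450 followed the order MCM7, MCM3, MCM2, MCM4, MCM6, MCM5, and the same order of means held in KEAP1null-KYSE450. MCM7 stood apart at 13293 to 14683 normalized counts per kilobase in KYSE450 and 7466 to 9617 in KEAP1null-KYSE450. The ranges of MCM3 (6678 to 7620 per kilobase in KYSE450) and MCM2 (6117 to 7378) overlapped, but within every library of both lines MCM3 was above MCM2. The ranges of MCM6 (3443 to 3723) and MCM5 (2948 to 3582) overlapped too, with MCM5 above MCM6 only within KYSE450 library 1. In KEAP1null-KYSE450, the range of MCM2 (2982 to 4066 per kilobase) overlapped with those of MCM3 (4010 to 5202) and MCM4 (3090 to 3810). MCM2 was below MCM4 only within KEAP1null-KYSE450 library 2. In KYSE450 every library of MCM2 was above every library of MCM4 (5013 to 5286).

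**Figure D2:**
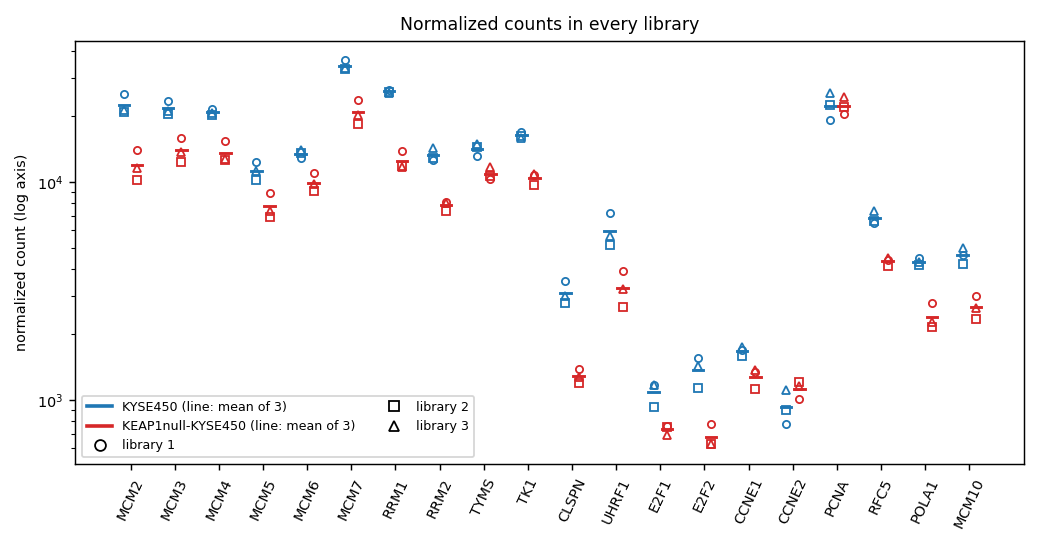
Normalized counts (log axis) of 20 of the 45 genes in each of the 3 KYSE450 and 3 KEAP1null-KYSE450 libraries, with short lines at the mean of each line and marker shapes for the libraries. The lines separate for 18 of the genes shown, and overlap for PCNA and CCNE2.

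Of the 4 origin licensing factors, CDT1, CDC6 and ORC1 fell and ORC6 was not called. CDT1, which brings the helicase to origins with CDC6, had a mean of 5627 ± 685 normalized counts (SD, n = 3) in KYSE450 and 3770 ± 223 in KEAP1null-KYSE450 (log2 fold change -0.57, limma adjusted p = 6.8e-04). CDC6 went from 10208 ± 918 to 7306 ± 757 (-0.48) and ORC1, the largest origin recognition subunit, from 3870 ± 277 to 3007 ± 268 (-0.37). ORC6 had a difference of -0.18 with a 95% interval of -0.44 to 0.08. The call of ORC1 was lost without KEAP1null-KYSE450 library 2 (-0.31, limma adjusted p = 0.060), with edgeR and DESeq2 on 4 libraries and after quantile normalization (adjusted p 0.055 to 0.10), and ORC6 passed without KYSE450 library 1 (-0.28, limma adjusted p = 0.041). GMNN, the inhibitor of CDT1 that prevents relicensing, was lower as well, with a difference of -0.52 (limma adjusted p = 0.0058).

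Helicase activation split into genes that fell and genes with no call. MCM10, which binds the activated helicase and polymerase alpha, stood at 4637, 4212 and 4967 normalized counts in KYSE450 and at 2999, 2354 and 2655 in KEAP1null-KYSE450 (log2 fold change -0.79, limma adjusted p = 8.7e-05). CDC45, the helicase cofactor, went from 3931 ± 357 to 2734 ± 21.6 (-0.52, SD, n = 3). The 4 subunits of the GINS complex, which work in equal numbers in the helicase, did not move alike. GINS4 fell (-0.36, limma adjusted p = 0.0062), while GINS2 (-0.27, interval -0.53 to -0.01, limma adjusted p = 0.083), GINS3 (-0.07, interval -0.28 to 0.13) and GINS1 (0.20, interval -0.04 to 0.44) were not called. GINS1 stood at 2832, 3153 and 3801 normalized counts in KYSE450 and at 3605, 3662 and 3903 in KEAP1null-KYSE450, so the lines overlapped. Leaving out KYSE450 library 3, the highest of its line, gave GINS1 a call in the higher direction (0.32), and leaving out KYSE450 library 1 gave GINS2 a call in the lower one (-0.38). On 4 libraries GINS4 lost its call with edgeR (-0.34, adjusted p = 0.11) and DESeq2 (-0.37, adjusted p = 0.083). The intervals of GINS1 and GINS4 from limma did not overlap.

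PCNA showed no detectable difference. This sliding clamp, the ring that tethers polymerases to DNA, was at 19126, 22400 and 25614 normalized counts in KYSE450 and at 20429, 21966 and 24615 in KEAP1null-KYSE450. The libraries of the lines interleaved, and the log2 fold change was 0.003 with a 95% interval of -0.26 to 0.26, which does not reach the estimates of the 6 MCM2-7 subunits. Its difference turned to -0.38 (limma adjusted p = 0.0011) when the trend on GC content and transcript length was removed, as described below. Over the 17 other settings the difference of PCNA ran from -0.38 to 0.22. The subunits of RFC, the clamp loader, were divided. RFC5 stood at 6475, 6587 and 7338 normalized counts in KYSE450 and at 4370, 4123 and 4498 in KEAP1null-KYSE450 (-0.65, limma adjusted p = 1.0e-04), and RFC2 went from 6121 ± 255 to 4419 ± 126 (-0.47, SD, n = 3, with a call that edgeR on 4 libraries did not give). RFC3 (-0.16, interval -0.40 to 0.09) and RFC4 (-0.03, interval -0.28 to 0.22) were not called (RFC3 passed at -0.25 without KYSE450 library 1), and RFC1, the large subunit of the same complex, was lower (-0.30, limma adjusted p = 0.029).

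Among polymerases and primase, 4 of 8 genes fell and 4 were not called. POLA1, the catalytic subunit of polymerase alpha, went from 4480, 4174 and 4293 normalized counts to 2780, 2173 and 2283 (log2 fold change -0.85, limma adjusted p = 4.1e-05). POLD1, the catalytic subunit of polymerase delta, went from 4850, 3811 and 3525 to 2925, 2371 and 2634 (-0.61, limma adjusted p = 0.0016). Both catalytic subunits thus had every KEAP1null-KYSE450 library below every KYSE450 library. POLE, the catalytic subunit of polymerase epsilon, had 3889, 3052 and 3206 against 2910, 2822 and 2726 normalized counts, which did not overlap but missed the threshold (-0.26, interval -0.49 to -0.02, limma adjusted p = 0.064). The accessory subunit POLD3 (-0.29) and the primase subunit PRIM2 (-0.29) passed, whereas the primase catalytic subunit PRIM1 (-0.28, interval -0.54 to -0.03), POLE2 (-0.19) and POLA2 (-0.09) did not. POLA2 was the lowest expressed of the 45 genes, with a mean of 461 ± 61.7 normalized counts in KYSE450 and 430 ± 2.36 in KEAP1null-KYSE450 (SD, n = 3). Of the 3 genes of single-strand binding and Okazaki fragment processing, LIG1, the ligase that joins the fragments, was lower (-0.32, limma adjusted p = 0.033), FEN1, the flap nuclease, missed the threshold (-0.28, limma adjusted p = 0.054) and RPA2 stood at -0.01 (interval -0.24 to 0.21). The calls nearest the threshold depended on single libraries and on the processing. Of the 17 other settings, POLD3 and PRIM2 lost theirs in 8 and LIG1 in 9, among them edgeR, DESeq2, quantile normalization and eBayes without trend. POLD3 and PRIM2 lost the call without any 1 of KYSE450 libraries 2 and 3 and KEAP1null-KYSE450 libraries 2 and 3 (-0.31 to -0.24, limma adjusted p 0.055 to 0.092). LIG1 lost its call without KYSE450 library 1 or 2 or KEAP1null-KYSE450 library 2 or 3 (-0.35 to -0.22, limma adjusted p 0.063 to 0.13). PRIM1 passed without KYSE450 library 1 (-0.40), and FEN1 without KEAP1null-KYSE450 library 1 (-0.39).

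All 4 genes of nucleotide supply fell, with a median of -0.71. RRM1, the large subunit of ribonucleotide reductase, which makes deoxyribonucleotides, lies on chromosome 11 from 4094707 to 4138932 (plus strand, hg38, gencode v44). It stood at 26370, 25964 and 25638 normalized counts in KYSE450 and at 13804, 11864 and 11722 in KEAP1null-KYSE450 (log2 fold change -1.06 ± 0.10 SE, limma adjusted p = 2.3e-06). The KYSE450 libraries of RRM1 were nearly equal, and the gap to the other line was many times their spread. RRM2, the small subunit made in S phase, went from 12560, 12898 and 14367 to 8120, 7367 and 7983 (-0.76, limma adjusted p = 3.1e-05). TK1, the thymidine kinase of dividing cells, went from 16942, 16192 and 15863 to 10730, 9629 and 10848 (-0.65, limma adjusted p = 8.9e-05). TYMS, which makes thymidylate and is the target of fluorouracil, went from 13146, 14457 and 14976 to 10316, 10641 and 11688 (-0.38, limma adjusted p = 0.0051). TYMS thus had the smallest decline of the 4, and its call was lost after quantile normalization and with edgeR on 4 libraries.

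Of the 4 regulators of entry into S phase, 3 fell and CCNE2 was not called. E2F2, an activating E2F factor, lies on chromosome 1 from 23506438 to 23531233 (minus strand). It stood at 1554, 1131 and 1437 normalized counts in KYSE450 and at 776, 626 and 631 in KEAP1null-KYSE450 (log2 fold change -1.01 ± 0.14 SE, limma adjusted p = 8.8e-05). E2F1 went from 1089 ± 140 to 734 ± 37 (-0.56, SD, n = 3, limma adjusted p = 0.0025). CCNE1, which activates CDK2 at the start of S phase, stood at 1693, 1594 and 1748 in KYSE450 and at 1339, 1126 and 1375 in KEAP1null-KYSE450 (-0.39, limma adjusted p = 0.010), and lost its call without KEAP1null-KYSE450 library 2 (-0.31, limma adjusted p = 0.065). CCNE2, the second cyclin E gene, stood at 778, 901 and 1111 in KYSE450 and at 1010, 1213 and 1157 in KEAP1null-KYSE450. The libraries of CCNE2 overlapped between the lines (0.29, interval -0.01 to 0.59, limma adjusted p = 0.10). Its interval did not overlap with that of CCNE1 (-0.63 to -0.16), and without KYSE450 library 3 it was called higher (0.42). CCNE2 shares 37.0% of its exonic bases with INTS8 on the opposite strand, which was itself lower (-0.46). The counting was not stated to use strand, so reads from such gene pairs cannot be told apart.

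In the group of checkpoint, chromatin and histone mRNA genes, 4 of 5 fell. CLSPN encodes claspin, the adaptor through which stalled forks activate CHK1, and lies on chromosome 1 from 35720218 to 35769978 (minus strand). It stood at 3507, 2773 and 2988 normalized counts in KYSE450 and at 1390, 1199 and 1276 in KEAP1null-KYSE450 (log2 fold change -1.26 ± 0.11 SE, limma adjusted p = 2.2e-06). CLSPN was the gene with the largest decline of the 45, and stayed past -1 in all 17 other settings tried (-1.33 to -1.16). UHRF1, which brings the maintenance methyltransferase to newly replicated DNA, went from 7191, 5123 and 5627 to 3909, 2682 and 3216 (-0.87, limma adjusted p = 3.8e-04). CHAF1A, the large subunit of the histone chaperone CAF-1, went from 6157, 4724 and 4952 to 3833, 3118 and 3374 (-0.61, limma adjusted p = 9.9e-04). CHAF1B, another subunit of CAF-1, was lower by less (-0.35, limma adjusted p = 0.026), and SLBP, which binds the stem-loop of histone mRNA, was not called (-0.23, interval -0.45 to -0.01). Without KYSE450 library 3 (-0.30) or KEAP1null-KYSE450 library 2 (-0.24) CHAF1B lost its call, as it did with edgeR on 4 libraries, after quantile normalization and with eBayes without trend, and without KYSE450 library 1 SLBP gained one (-0.31).

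Other genes of the same pathways, taken from lists by function, moved in both directions. Of 32 other replication factors, 16 were lower and 5 higher, with a median of -0.27. Among the 9488 genes in the replication genes' range of means, 35.0% were lower, with a median of -0.13. Whether any of the lists by function differed from this background was not tested. The 16 became 10 without KEAP1null-KYSE450 library 2, 9 after quantile normalization, and 7 with edgeR and with DESeq2 on 4 libraries. DONSON (-0.72), TIPIN (-0.69) and CHTF18 (-0.66), which act at the fork or load PCNA, had the largest declines. The 5 higher ones were the small polymerase delta subunit POLD4 (0.58, at 111 to 168 normalized counts in KYSE450 and 201 to 228 in KEAP1null-KYSE450), the small RPA subunit RPA3 (0.48), ORC3 (0.38), and the small polymerase epsilon subunits POLE4 (0.35) and POLE3 (0.33). Thus in polymerase delta, POLD1 and POLD3 were lower, POLD4 higher and POLD2 without a call (-0.03).

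**Figure D3:**
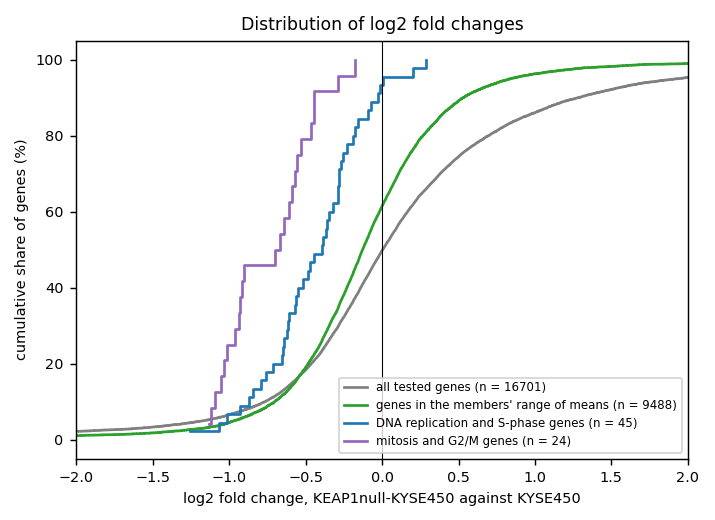
Cumulative share of genes (y axis, percent) by log2 fold change, KEAP1null-KYSE450 against KYSE450 (x axis), for all 16701 genes tested, the 9488 in the same range of means, the 45 replication genes and 24 mitosis and G2/M genes. The replication genes (median -0.39) lie to the left of both backgrounds, and the mitosis genes (median -0.68) further left.

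Of 13 other genes of nucleotide supply, 5 were lower and 2 higher (median -0.22). Among the 9488 genes in the replication genes' range of means, 35.0% were lower (median -0.13), and a difference from this background was not tested. The 5 became 3 without KEAP1null-KYSE450 library 2 and after quantile normalization, 2 with edgeR on 4 libraries and 10 with the trend on GC content and length removed. The nucleoside transporter SLC29A1 went from 4436, 3559 and 3555 to 1810, 1295 and 1381 normalized counts (-1.37, limma adjusted p = 5.3e-06), and the thymidylate kinase DTYMK (-0.48) and the nucleotide hydrolase SAMHD1 (-0.42) were lower as well. The 2 higher genes were TK2, the mitochondrial thymidine kinase (0.53), and RRM2B, the small reductase subunit used outside S phase (0.50). RRM2B stood at 1703, 2107 and 2076 normalized counts in KYSE450 and at 2728, 2666 and 2899 in KEAP1null-KYSE450 (limma adjusted p = 0.0020). The small reductase subunits RRM2 and RRM2B therefore moved in opposite directions.

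Among 28 tested genes of G1/S control, 18 were lower and 2 higher (median -0.44). The share lower was 35.0% among the 9488 genes in the replication genes' range of means (median -0.13). A difference from this background was not tested. The 18 became 13 with edgeR and with DESeq2 on 4 libraries, and 22 with the trend on GC content and length removed. CCND2, a D-type cyclin, went from 1541, 1011 and 1173 normalized counts to 117, 51 and 65.6 (-4.04, limma adjusted p = 1.1e-07), and CDK6, a kinase partner of D-type cyclins, was lower by 1.03 on the log2 scale. The CDK inhibitors did not move together. CDKN1A, which encodes p21, went from 444, 377 and 363 to 178, 177 and 150 (-1.22, limma adjusted p = 6.0e-05), and CDKN1C was lower at 14.3 to 28.2 normalized counts against 33.2 to 72.8 (-1.32, limma adjusted p = 0.016). CDKN2B, which encodes p15, was higher (0.78, limma adjusted p = 0.0013), as was RBL2, the pocket protein of resting cells (0.38, limma adjusted p = 0.0036). CDKN2A was listed at 0 in all 6 libraries.

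In the list of chromatin replication, 3 of 9 genes were lower and 1 higher (median -0.18). Among the 9488 genes in the replication genes' range of means, 35.0% were lower (median -0.13), and a difference from this background was not tested. The 3 lower genes of the list were the maintenance methyltransferase DNMT1 (-0.77), the remodeller HELLS (-0.75) and the histone chaperone NASP (-0.59). ASF1A, a histone chaperone, went from 2374, 2912 and 3407 to 6552, 7258 and 7874 normalized counts (1.33, limma adjusted p = 4.0e-06), whereas its paralog ASF1B had a difference of -0.20 and was not called (limma adjusted p = 0.099). Of 11 replication checkpoint genes, 6 were lower and 0 higher by limma (median -0.35), led by WEE1 (-0.49), CHEK1 (-0.44) and ATRIP (-0.42). The 6 became 2 with edgeR and with DESeq2 on 4 libraries.

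Nearly all genes of mitosis and G2/M were lower. Of 24, 22 were lower and 0 higher by limma, with a median of -0.68, and 6 passed both thresholds. In the replication genes' range of means, 35.0% of the 9488 genes were lower (median -0.13) and 1741 were higher. Of these 9488, 428 were lower past both thresholds. CCNF (-1.13), PLK1 (-1.12) and MKI67 (-1.09) had the largest declines. MKI67, a marker of cycling cells, went from 21783, 15166 and 15003 normalized counts to 8317, 8440 and 7293 (limma adjusted p = 3.5e-05), and TOP2A from 47021, 47559 and 46459 to 34715, 30768 and 30440 (-0.56, limma adjusted p = 5.1e-04). The summed level of the 24 genes was 271957 to 278682 normalized counts in KYSE450 and 162984 to 172247 in KEAP1null-KYSE450. Whether the mitosis genes differed from the replication genes or from this background was not tested.

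E2F words were common in the promoters of the replication genes. Promoter windows were found for 39 of the 45 genes, and the others were CCNE2, POLD3, MCM4, MCM5, RPA2 and GINS4. Where a gene had several windows, the one with the most matches counted. At least 1 of the 4 E2F words, on either strand, occurred in the windows of 22 (56.4%). The share was 21.1% among the 11059 tested genes with a window and 13.0% among all 27305 genes with one. The share was 57.7% among the 26 genes that fell and 53.8% among the 13 that were not called. At least 2 matches to the words occurred in 34.6% of the 26 and in 7.69% of the 13, against 2.94% of tested genes. Overlapping matches on opposite strands counted as 2, as at each place in MCM6, so 2 matches need not be 2 sites. Whether the 26 and the 13 differed was not tested. CCAAT, the box bound by NF-Y, occurred in 56.4% of the 39 and 41.3% of tested genes. The words TTTGAA and TTCGAA, forms of the element that represses mitotic genes in G1, occurred in 5.13% of the 39 (MCM6 and RRM1), in 13.6% of tested genes and in 60.0% of the 20 mitosis and G2/M genes with a window. TGACNNNGC, the core of the antioxidant response element that NRF2 binds, occurred in 20.5% of the 39, among them RRM1, MCM2, TK1 and PCNA. It occurred in 15.8% of tested genes and 13.2% of all genes with a window. These are matches of letters in a short window, and binding was not measured.

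The differences among the 45 genes went with transcript length. Over the 45 genes, the log2 fold change had a Pearson correlation of -0.48 with log2 canonical transcript length, of -0.34 with GC content and of -0.25 with log2 mean level, given as a description of genes that share the same libraries. Of the 12 genes with a transcript under 2000 bases, 5 fell and 7 were not called (median -0.26), and of the 33 longer ones 25 fell and 8 were not called (median -0.55). All tested genes leaned the same way, with a median of 0.17 and 16.8% lower among the 5653 under 2000 bases, and a median of -0.07 and 30.1% lower among the 10977 others. PCNA, at 1276 bases, was the shortest transcript of the 45, and CLSPN, at 8512 bases, the longest.

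**Figure D4:**
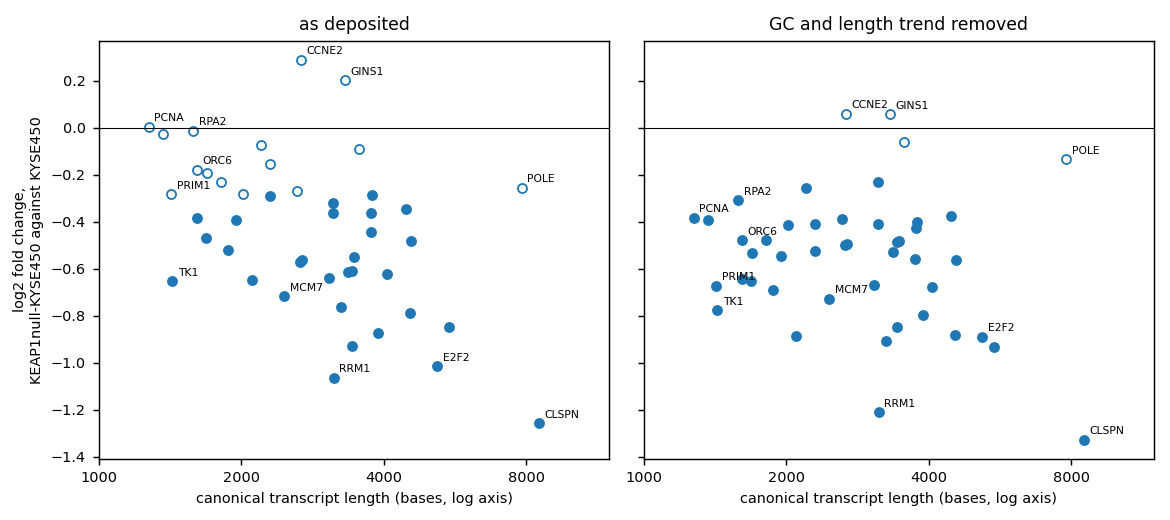
Log2 fold change of the 45 genes (y axis) against canonical transcript length (x axis, log scale), as deposited (left) and after removal of a trend on GC content and length fitted over all genes in each library (right), with filled points at an adjusted p under 0.05. After removal 41 genes were lower, PCNA moved to -0.38, and CCNE2, GINS1, POLA2 and POLE stayed without a call.

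When the trend on GC content and length over all genes was removed in each library, 41 of the 45 genes were lower and 0 higher by limma, with a median of -0.52, where 36.9% of all genes were lower and 21.3% higher. The same step moved the median of all genes to -0.13, so that the distance between the 45 genes and all genes was -0.39 after it and -0.40 before it. It also moved the share of lower genes among all calls from 51.1% to 63.4%. The declines of CLSPN (-1.33) and RRM1 (-1.21) were as large without the trend, whereas that of E2F2 shrank to -0.89, which left 2 genes past both thresholds. Of the 15 genes not called as deposited, all but CCNE2, GINS1, POLA2 and POLE were then lower.

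Length and GC content also marked single libraries. In each line, library 1 had its short replication genes low and its long ones high relative to the mean of the line, with a correlation between deviation and log2 length over the 45 genes of 0.61 in KYSE450 and 0.59 in KEAP1null-KYSE450. The correlation was -0.65 and -0.38 in KYSE450 libraries 2 and 3 and -0.41 and -0.53 in KEAP1null-KYSE450 libraries 2 and 3. With GC content it was 0.77, -0.48 and -0.73 in KYSE450 libraries 1 to 3 and 0.47, -0.41 and -0.31 in those of KEAP1null-KYSE450. Over 12321 genes, the correlation with length kept these signs but was weaker, down to -0.07 in KEAP1null-KYSE450 library 2. Length and GC content were not told apart. Single deviations ran from -0.27 to 0.28 on the log2 scale. The deviations are taken from the mean of each line, so a length difference shared by all libraries of a line does not show in them. Each line had 1 library of the first kind. The part of RNA quality in the spread, and in the difference between the lines, was not tested. Without library 1 of KYSE450, 34 of the 45 genes were lower, where 24.3% of all genes were. Without library 1 of KEAP1null-KYSE450, 31 were, where 25.3% of all genes were.

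**Figure D5:**
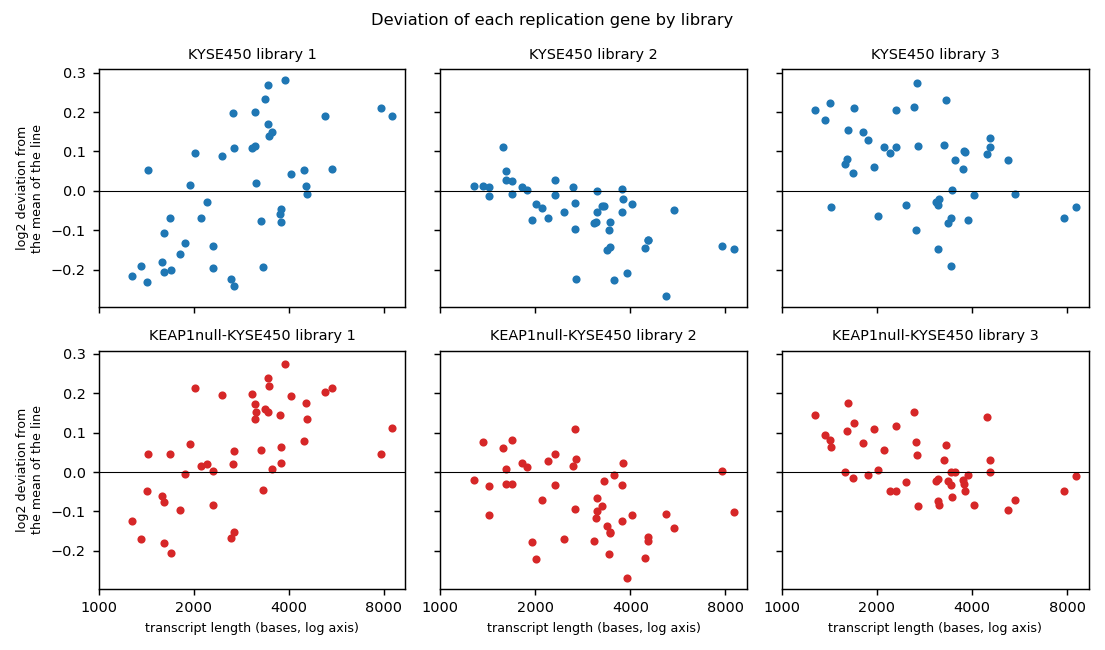
Log2 deviation of each of the 45 genes from the mean of its line (y axis) against canonical transcript length (x axis, log scale), in 1 panel per library. Points rise with length in library 1 of both lines (correlations 0.61 and 0.59) and fall in the 4 others (-0.38 to -0.65).

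The replication genes were also set against their neighbours along the chromosomes, since the clone may differ from the parental line in whole segments. The median log2 fold change of the 20 tested genes on either side of each lay between -0.40 and 0.46, with a median over the 45 neighbourhoods of 0.002. Of the 45 genes, 41 were lower than the median of their neighbours, among them all 30 that fell. The 30 had been called for being low, so this was close to given for them. The same count was not made over all genes. Of the 9488 genes in the range of means of the 45, 5831 had a log2 fold change below 0. The neighbourhood of RRM1 had the lowest median (-0.40), less than its own change of -1.06, and was the 1 of 45 below -0.3. DNA copy number was not measured.

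Some of the genes share exonic bases with a gene on the other strand, in addition to CCNE2. TYMS shares 39.9% of its exonic bases with ENOSF1, which was higher (0.26), MCM2 shares 23.6% and GINS4 21.0% with long noncoding RNAs, MCM7 7.9% with AP4M1 (-0.15, not called) and RFC5 5.72% with WSB2, which was lower (-0.33). AP4M1 stood at 587 to 734 normalized counts, far under the 18418 of the lowest library of MCM7. GINS3 shares 10.9% with a long noncoding RNA on the other strand. On the same strand, POLA2 shares 16.8%, PRIM1 10.9% and POLD1 8.63% of their exonic bases with another protein-coding gene. How the reads of these stretches were assigned was not stated.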

How the data were processed

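RNA sequencing of 3 KYSE450 and 3 KEAP1null-KYSE450 libraries was analysed here. Per the methods, the authors prepared libraries with a NEBNext Ultra kit, aligned quality-filtered reads to hg38 with STAR (version 2.6.90c) and counted them per gene with featureCounts (version 1.5.1). The submitters' processing notes also list FastQC (0.11.5), cutadapt (1.12) and the mouse build mm10, whose role is not given in the sources used here. The matrix the authors deposited gives each gene's signal as a normalized count. Its columns are headed by the line alone, so libraries are numbered by column. Divided by the smallest value of the library, all values above 0 were whole within 0.1 read (100%). Reads were taken as recovered in 4 libraries (53027359 to 61543442 reads). KYSE450 library 2 and KEAP1null-KYSE450 library 3, where 1 read was worth 1.01 normalized counts, were not accepted, although their values were as whole. The fits with edgeR and DESeq2 thus used fewer libraries than limma. The part of this in the calls lost with them was not tested.

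Differences were tested with limma (3.58.1, run in R 4.3.3) using lmFit and trended eBayes. Values entered as log2 after a pseudocount of 1 was added, for the 16701 genes whose mean reached 10, in a two-sided test with Benjamini-Hochberg adjustment over all of them. A gene was called at an adjusted p under 0.05, and counted as past both thresholds if its log2 fold change was also 1 or more in size. Intervals are 95% intervals from limma. The other settings were a pseudocount of 0.1 or 10, every detected gene, a minimum mean of 100, the same total per library, quantile normalization, eBayes without trend, each library left out, and edgeR (version 4.0.16, quasi-likelihood test) and DESeq2 (version 1.42.0) on the recovered reads. Correction for GC content and transcript length, and a fit within the genes' range of means, were chosen after seeing the data. The pipeline was tested on simulated data.

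The 45 genes and all lists were chosen with earlier results of these data known. Values in every library are given for genes past both thresholds, then for the largest called changes up to 15 genes, and for MCM2 to MCM7, PCNA, TYMS, RRM2 and CCNE1. From each list up to 3 called genes per direction are named, with CDKN1A, MKI67, TOP2A, KEAP1 and NFE2L2, and 1 further gene of this rule is not reported here. GMNN, RFC1, POLD2, POLE3, POLE4, ASF1B, CDK6 and the overlapping genes were named after their values were seen. Positions, lengths and overlaps come from gencode v44 (hg38), where 16630 of the genes tested were found, and promoters from RefSeq (GRCh38.p14).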

Additional observations from a re-analysis of the deposited data

How the results depend on the processing

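Across the 17 other settings, 21 (edgeR on 4 libraries) to 41 (trend on GC content and length removed) of the 45 genes were lower. The share of all genes called lower was 25.5% as reported, 14.8% with edgeR on 4 libraries and 36.9% with the trend removed. Of the 45, 20 were called lower in the reported fit and in every setting. Another 10 lost the call in at least 1 setting, 2 (POLA2 and POLE) were called in none, and 13 uncalled genes were called in some. The number higher, 0 as reported, was 1 after quantile normalization (GINS1) and 0 to 2 with 1 library left out, 2 without KYSE450 library 3 (GINS1 and CCNE2). The number past both thresholds, 3 as reported, was 1 after quantile normalization (CLSPN) and 2 to 5 with 1 library left out, 5 without KEAP1null-KYSE450 library 1, when MCM2 and UHRF1 joined. The median of -0.39 became -0.25 after quantile normalization and -0.52 with the trend removed, where all genes stood at -0.02 and -0.13. The cause was not tested.

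Signs changed only in genes that were not called. PCNA (0.003) was at -0.047 with edgeR, -0.073 with DESeq2, -0.11 to 0.11 with 1 library left out and -0.38 with the trend removed, where it was lower. Over all 17 settings PCNA ran from -0.38 to 0.22. GINS3 was at 0.035 and RFC3 at 0.0058 after quantile normalization. RFC4 was at 0.0028 with the same total per library, 0.12 after quantile normalization and -0.12 to 0.060 with 1 library left out. RPA2 was at 0.018 with the same total, 0.13 after quantile normalization, 0.069 with edgeR, 0.042 with DESeq2 and -0.10 to 0.042 with 1 library left out. At this depth, the 95% intervals of uncalled genes set the limit, and differences within them were not detectable.

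No paired analysis was possible because the columns of the matrix carry no replicate number, so no library of one line can be matched to one of the other.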
